A study of Rattus norvegicus with 17 samples.

Results

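Cytosolic ribosomal protein genes were followed in rat skin after chronic exposure to millimetre waves. Members were all probes whose sequence name led to a rat gene symbol of the Rpl, Rplp or Rps series, without the Rps6 kinases and the mitochondrial ribosomal proteins. This rule found 130 of the 30367 probes of the array, and they stood for 73 of the 77 rat genes of this kind in the RefSeq table. The 73 members comprised 44 proteins of the large subunit and 29 of the small subunit, and all 73 were kept by the filter on dim probes. The skin came from male CD hairless rats, given as young, 2 to 3 months, in the labels, which can only be their age before the months of exposure, and they were housed in pairs. One group was exposed to 94 GHz for 3 h per day, 3 days per week, over 5.5 months, and the other was sham exposed. By their labels 9 arrays hold exposed skin and 8 hold sham skin, whereas the protocol speaks of 6 exposed and 8 sham animals. Some exposed arrays may therefore share an animal, and p-values measure the spread between arrays. Whole explants were homogenised, so that fewer cells of a type and less RNA per cell cannot be told apart.

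A ribosome joins a small subunit, which holds the mRNA and reads its codons, to a large subunit, which forms the peptide bond. Its proteins are made in near equal amounts, and in vertebrates their mRNAs begin with a run of pyrimidines, the terminal oligopyrimidine motif, through which the mTOR pathway and LARP1 govern their translation. The mRNAs are among the most abundant of a cell, and in skin the keratinocytes of the epidermis and the matrix cells of the growing hair follicle are active in protein synthesis.

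RefSeq promoter windows of the build GRCr8, from 250 bases before the annotated start to 50 after it, were at hand for 59 of the 73 members. A C within 20 bases of the start that was followed by 5 or more pyrimidines, on the sense strand, was present in 51 of the 59, or 86.4%, and in 31.2% of all 27457 promoters. The letters CTTTCC, which such a run can contain, were found on the sense strand between 50 bases before and 20 after the start in 28.8% of the members and in 3.2% of all promoters. CCGGAAG, searched on both strands over the whole window, was found in 30.5% of the members and in 9.2% of all promoters. Windows from 40 bases before the start to 15 after it are shown for 5 members to which the results below return, with the pyrimidine run in capitals. They are Rpl19 (chr10:83519024-83519078, plus strand), Rpl38 (chr10:100200395-100200449, plus strand), Rplp0 (chr12:46718376-46718430, minus strand), Rps27 (chr2:177964592-177964646, minus strand) and Rpl3 (chr7:113507976-113508030, minus strand). Rpl3 is the one of the 5 with no such run near its annotated start.
Rpl19: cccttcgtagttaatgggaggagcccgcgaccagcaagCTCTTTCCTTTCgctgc
Rpl38: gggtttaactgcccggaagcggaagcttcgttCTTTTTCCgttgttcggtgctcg
Rplp0: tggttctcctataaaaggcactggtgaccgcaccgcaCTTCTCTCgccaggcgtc
Rps27: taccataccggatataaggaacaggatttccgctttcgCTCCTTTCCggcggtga
Rpl3: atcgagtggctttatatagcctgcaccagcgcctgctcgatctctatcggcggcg

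Values are log2 of the processed signal minus the 75th percentile of the same array, so 0 is the level of that percentile. The percentile itself ran from 1077 to 1703 signal units, and 66.7% to 70.8% of the probes were well above background on an array. All 9 measured epidermal markers, Krt5, Krt14 and Krt1 among them, were well above background on all 17 arrays, as were all 11 of dermal fibroblasts. Measured markers had already passed the filter on dim probes, and the listed Itga6, Col17a1, Dsg1, Dsc1 and Trp63 were not among them. All 15 leukocyte markers were also well above background on all 17 arrays, so this does not single out the epidermis. The content of other tissue differed between explants: the muscle creatine kinase Ckm ran from -3.94 to 4.47 and the follicle keratin Krt25 from -4.44 to 7.49. Precision is limited by how many arrays there are. Sham replicate 6 stood apart in its spots. Among 5111 probes with a pair of spots and a signal at least that of the dimmest member, the spots differed by more than 0.5 on the log2 scale in 235, or 4.60%, on that array and in 0 to 28 on each of the others. Several results that rest on this array are given with and without it. No spot of a member probe was saturated on any array, and 72 members have pseudogenes in RefSeq, with a median of 11 each, which probes may not tell from the gene.

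No member differed between exposed and sham skin. With limma and Benjamini-Hochberg adjustment over all 20710 kept probes, 0 of 73 members passed an adjusted p of 0.05, against 0% of all kept probes. At an unadjusted p under 0.05 there were also 0 of 73, against 4.55% of all kept probes. That count was 11 without exposed replicate 2, 4 without sham replicate 2, 7 without sham replicate 3, and 3 without exposed replicate 8 or sham replicate 7. The shares of all kept probes in these refits are not given, so these counts have no background beside them. The mean of the exposed arrays was lower than that of the sham arrays in 70 members and higher in 3, where 59.0% of all named genes were lower. The median difference of the members was -0.09 on the log2 scale, against -0.02 over all named genes. The groups overlapped in every member, and the share of all kept probes whose groups overlapped is not given. The 95% intervals of the differences lay within 1.3-fold either way in all 73 members under this scaling. The share of lower members depended on the scaling. With quantile scaling, which gives all arrays the same distribution, 42 members were lower and 31 higher, with a median of -0.0048, and in the deposited values of the series, 38 were lower, with a median of -0.0036.

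**Figure D1:**
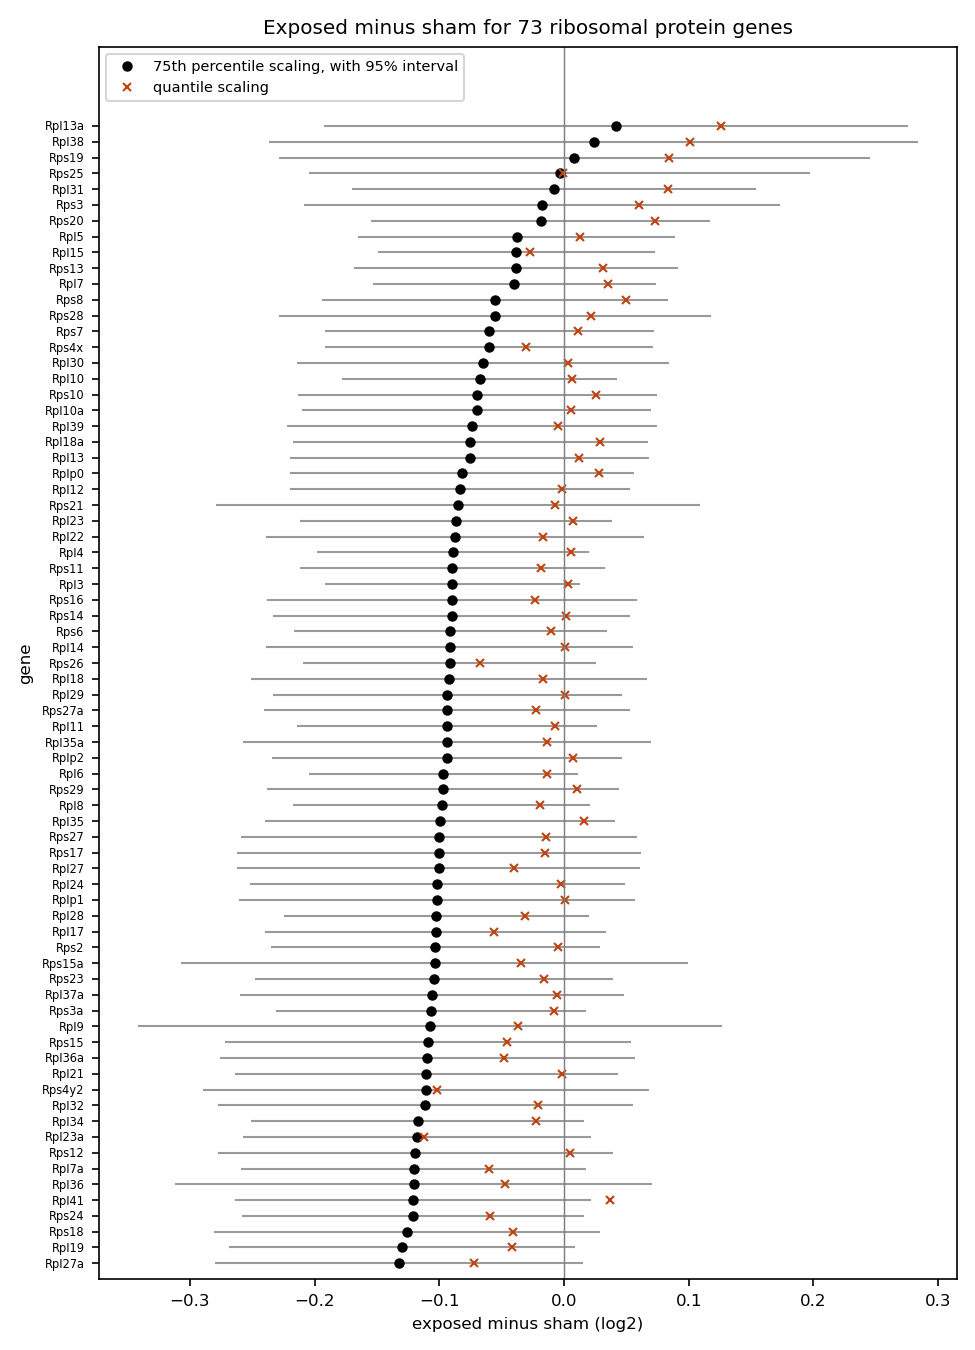
Exposed minus sham difference (log2, horizontal axis) of each of the 73 genes (vertical axis), with the 95% interval of the limma fit under 75th percentile scaling (black points and grey bars) and the difference under quantile scaling (red crosses). Every interval includes 0, and the black points sit mostly left of 0 while the red crosses lie on both sides of it.

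The smallest p belonged to Rpl19, a large subunit protein near the exit of the peptide tunnel. Its exposed arrays had a lowest value of 7.02, a median of 7.16 and a highest of 7.40, and its sham arrays had 7.11, 7.30 and 7.52. Most of the sham range lay inside the exposed range, and the difference was -0.13 ± 0.07 (SE, 9 and 8 arrays; limma, unadjusted p = 0.0648, adjusted p = 0.983). The next members by p were Rpl27a, Rpl6, Rps24, Rpl34, Rpl3, Rpl7a and Rps3a, with differences from -0.13 to -0.09 and unadjusted p from 0.075 to 0.0882 in limma, and with the same adjusted p of 0.983. With quantile scaling the difference of Rpl19 was -0.04 and that of Rpl3 was 0.0030. The order by p rested on sham replicate 6, which held the highest value of Rpl19. Without that array the difference of Rpl19 was -0.10 ± 0.06 (SE; limma, unadjusted p = 0.141). The smallest unadjusted p was then that of Rps24, 0.110 in limma.

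Among proteins of the large subunit, Rpl3 reaches towards the peptidyl transferase centre. Its exposed arrays ran from 6.39 through a median of 6.54 to 6.63, and its sham arrays from 6.45 through 6.60 to 6.74. The ranges overlapped over most of their length (difference -0.09 ± 0.05 SE), and its SD within groups was 0.087, or 0.082 without sham replicate 6. Rpl5 and Rpl11 travel with the 5S rRNA and bind Mdm2 when ribosome assembly is disturbed. Rpl5 had a median of 5.37 in both groups, with 5.15 to 5.46 in exposed and 5.24 to 5.59 in sham arrays. Rpl11 had 6.64, 6.79 and 6.99 in exposed and 6.76, 6.89 and 7.04 in sham arrays as lowest, median and highest values. Neither pair of groups was separated. Rpl10, which joins late in the assembly of the large subunit, was at 6.96 ± 0.08 (SD, n = 9) in exposed skin, and sham skin had 7.03 ± 0.11 (SD, n = 8). Rpl22, which has the paralogue Rpl22l1, was at 6.18 ± 0.15 and 6.27 ± 0.15, and Rpl39, which lines the exit tunnel, at 5.96 ± 0.14 and 6.03 ± 0.15. These 3 differences were smaller than the SD of the sham arrays.

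The stalk of the large subunit, which recruits the elongation factors, is built from Rplp0, Rplp1 and Rplp2. Rplp0 ran from 7.83 through a median of 7.94 to 8.28 in exposed and from 8.01 through 8.11 to 8.26 in sham arrays. The exposed arrays of Rplp0 spread more widely than the sham arrays, with SDs of 0.163 and 0.0774, a difference of spread that was not tested. Rplp1 was at 7.08 ± 0.16 in exposed skin (SD, n = 9) against 7.19 ± 0.14 in sham skin (SD, n = 8), and Rplp2 at 7.43 ± 0.13 and 7.52 ± 0.14. The differences of the 3 stalk genes lay between -0.10 and -0.08 on the log2 scale, and with quantile scaling between 0.00068 and 0.028.

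In the small subunit, Rps6 is the protein that S6 kinase phosphorylates downstream of mTOR. Rps6 ran from 6.25 through a median of 6.39 to 6.53 in exposed and from 6.30 through 6.45 to 6.70 in sham arrays, and the exposed values lay largely inside the sham range (difference -0.09 ± 0.06 SE). Rps27a, which is made as a fusion with ubiquitin, was at 6.30 ± 0.13 (SD, n = 9) and 6.40 ± 0.16 (SD, n = 8). Rps14, whose loss in humans accompanies anaemia in the 5q- syndrome, was at 6.09 ± 0.12 and 6.18 ± 0.15, and the zinc finger protein Rps27 at 6.54 ± 0.14 and 6.64 ± 0.17. Rps4x, encoded on the X chromosome, was at 4.81 ± 0.12 and 4.87 ± 0.13. Rps3, which lies at the mRNA entry channel and also acts in DNA repair, was at 6.88 ± 0.19 and 6.90 ± 0.19. Its difference was -0.02 over all arrays and -0.06 ± 0.09 (SE) without sham replicate 6, where its spots disagreed. The other probe of Rps3 gave -0.09 over all arrays. Of the differences of these 6 genes over all arrays, that of Rps6 exceeded the SD of its exposed arrays, 0.0833, and no other exceeded the SD of either group. The difference of Rps6 was -0.06 without sham replicate 6, and -0.03 at its other probe over all arrays. The values of that probe had r = 0.193 with those of the probe used.

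The members moved up and down together from array to array under the 75th percentile scaling. Each gene was centred on its own mean over the arrays, and the average of the 73 centred values of an array, called the member score, ran from -0.19 in exposed replicate 3 to 0.21 in sham replicate 5. Its mean was -0.04 ± 0.12 over the exposed arrays (SD, n = 9) and 0.04 ± 0.11 over the sham arrays (SD, n = 8), a difference of -0.08 that is smaller than either SD. Within slides 1 to 4 the difference was -0.00097, -0.092, -0.113 and -0.198, where slide 3 holds 1 array of each group and slide 4 holds 1 exposed array. The large and small subunit scores of an array never differed by more than 0.0554, and their Pearson r over the 17 arrays was 0.987. The median r between pairs of members was 0.78 over the 2628 pairs, against 0.0064 between pairs of the other named genes. Arrays share their scaling in all these values.

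**Figure D2:**
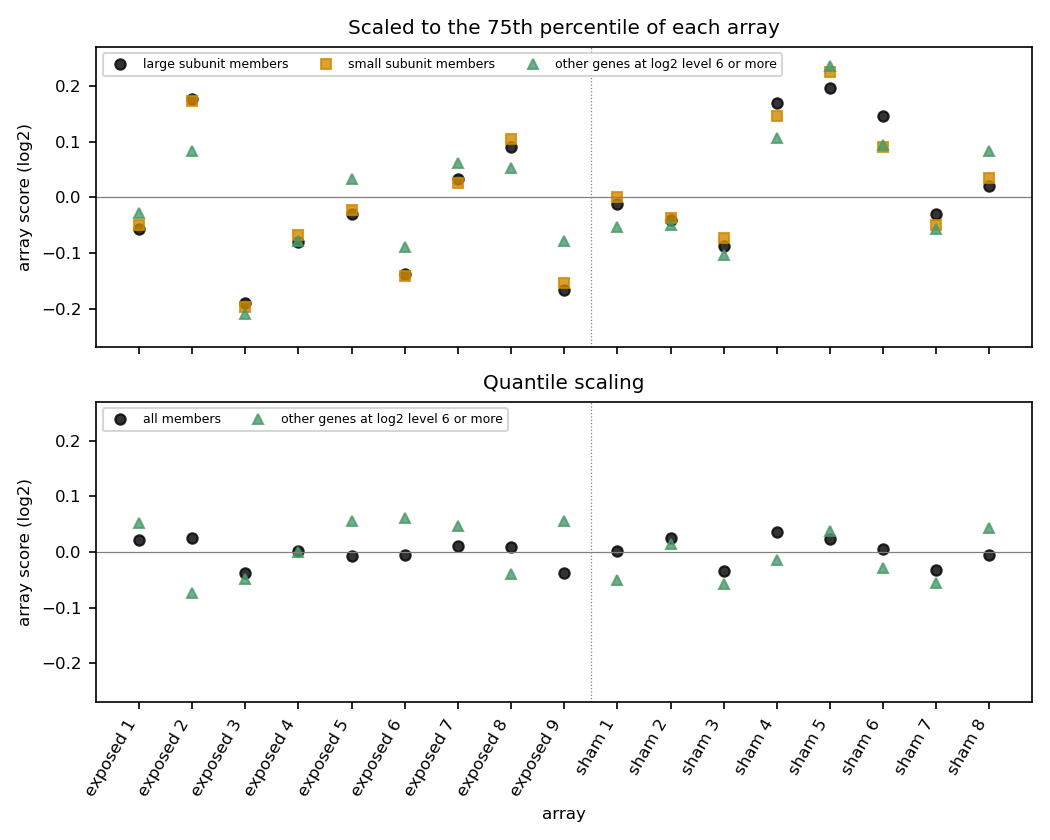
Array scores (log2, vertical axis) for each of the 17 arrays (horizontal axis, exposed left and sham right of the dotted line), with 75th percentile scaling above and quantile scaling below. In the upper panel the large and small subunit members lie within 0.0554 of each other on every array and the other genes of high signal follow them, and in the lower panel the member score stays between -0.038 and 0.037.

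This common movement was shared with other bright probes and was small under another scaling. The 46 named genes outside the members with a mean log2 value of at least 6 had an array score that correlated with the member score at r = 0.917 (Spearman rho = 0.924, 17 arrays), and it differed between exposed and sham by -0.06. The member score was higher on arrays with a low 75th percentile (r = -0.721, rho = -0.767, 17 arrays), the quantity by which each array was scaled. With quantile scaling the SD of the member score over arrays fell from 0.119 to 0.0237, the median r between members from 0.78 to 0.12, and the exposed minus sham difference of the score to -0.0047. Members are 54.5% of the named genes at or above that signal, so quantile scaling holds their distribution fixed in part by its construction. The part of each scaling in the common movement was not tested.

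The spread of the members was like that of other bright genes under the 75th percentile scaling. The median SD of a member within groups was 0.136, against 0.178 for all named genes and 0.140 for the 46 other bright genes. With quantile scaling it was 0.0702 for the members, 0.179 for all named genes and 0.117 for the other bright genes. Relative to the mean of the other members, which takes out the common movement, the median SD of a member was 0.0634. The SD between spots of 1 probe on 1 array had a median of 0.0502 over the 45 members with several spots. The 5 members of smallest SD were Rpl3, Rpl6, Rpl4, Rpl10 and Rpl15, and the 5 of largest SD were Rpl38, Rps19, Rpl13a, Rpl9 and Rps15a. Rpl15 was the dimmest member, at a mean of -1.275 in exposed and -1.237 in sham skin, and was read from 10 spots. Without sham replicate 6, Rpl4 had the smallest SD (0.0804, against 0.0823 for Rpl3) and Rps20 (0.0963) came before Rpl10 (0.0983). Rpl13a then had 0.188 and left the 5 largest, which Rpl36 joined with 0.196.

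Rpl38, a small protein of the large subunit that in mouse embryos is needed for the translation of Hox mRNAs, had the largest SD within groups of all members, 0.264. It ran from 6.47 through a median of 6.97 to 7.28 in exposed arrays and from 6.42 through 6.95 to 7.02 in sham arrays, and both groups held high and low arrays. Relative to the member score, all 4 of its probes were above their own mean on 9 arrays, 6 exposed and 3 sham, and all 4 were below it on 7 arrays, 3 exposed and 4 sham. The probes had opposite signs only on sham replicate 4. The departures of the probe used and of the 3 others correlated at r of 0.973, 0.911 and 0.848 over the 17 arrays. The exposed minus sham difference was 0.02 ± 0.12 (SE; limma, adjusted p = 0.993). Without sham replicate 6 it was -0.04 ± 0.12, and the SD within groups was 0.244, so the spread was nearly as large without that array.

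**Figure D3:**
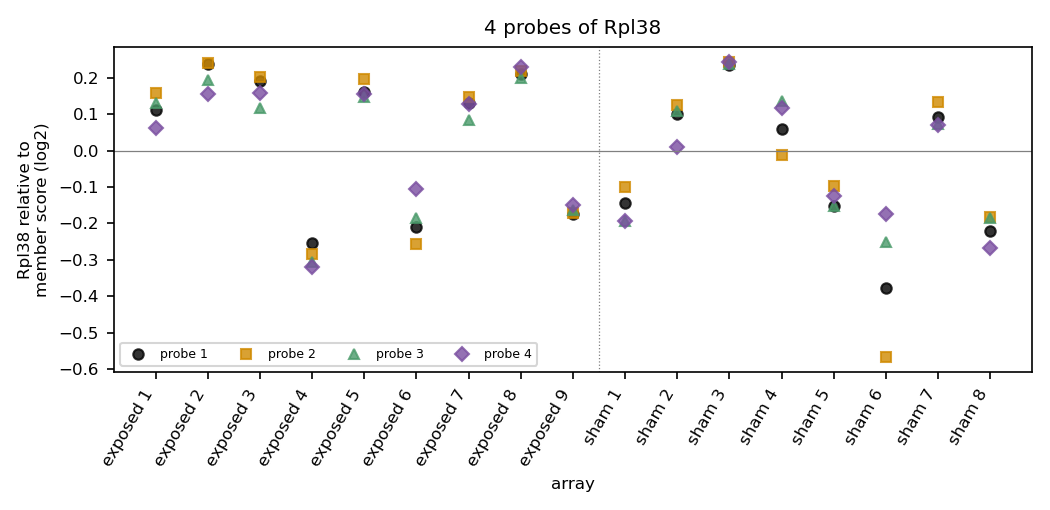
Log2 value of each of the 4 probes of Rpl38 minus its mean over arrays and minus the member score (vertical axis), for each of the 17 arrays (horizontal axis, exposed left and sham right of the dotted line). The probes lie together, above 0 on 9 arrays and below 0 on 7, and on sham replicate 6 they spread from -0.17 to -0.57.

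The other large departures were mostly on sham replicate 6. Of 1240 values of a member on an array, 12 lay more than 0.3 below the member's own mean after the mean movement of the other members was taken off, and 0 lay as far above. In a like count of the 46 other bright genes, 4 were below on sham replicate 6 and 2 above. On each other array 0 to 5 of those genes were below and 0 to 5 above. Of the 12 member values, 7 were on sham replicate 6: Rpl13a at -0.70, Rps19 at -0.64, Rps25 at -0.61, Rpl38 at -0.58, Rpl31 at -0.47, Rps3 at -0.45 and Rps20 at -0.44. The spots of some of these probes disagreed there. For Rpl31 one spot read 7.30 and the other 6.06, where their medians on the other 16 arrays were 7.04 and 7.05, and its other probe was not low. For Rps3 the spots read 6.00 and 7.15, with medians of 6.86 and 6.90 on the other arrays. Both spots of Rpl13a were low, at 6.64 and 6.43 against 7.19 and 7.12. Rps19, the gene most often mutated in Diamond-Blackfan anaemia, was low at its 1 spot of the probe used (5.92 against 6.51), while a second probe was high at both spots (6.74 and 6.73 against 6.32 and 6.33). The third probe of Rps19 was low with the first, at 6.26 against 6.37, and its departures followed those of the first over the 17 arrays (r = 0.879). Rps20 and Rps25 rest on 1 spot each. Without sham replicate 6 the 3 members with a higher exposed mean, Rpl13a, Rpl38 and Rps19, had differences of -0.04, -0.04 and -0.06, and all 73 members were then lower, with a median of -0.07 and 0 at an unadjusted p under 0.05 in limma.

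The remaining 5 departures were Rps19 on exposed replicate 6 and sham replicate 4 (-0.38 and -0.35), Rpl13a on sham replicate 1 (-0.31), and Rps4y2, a homologue of Rps4x, on exposed replicate 7 and sham replicate 5 (-0.43 and -0.48). The spots of Rpl13a on sham replicate 1 differed by 0.81. Rps4y2 was read from a probe of 1 spot, and its other probe did not follow it (r = -0.0069 over 17 arrays). Over the 57 pairs of the probe used and another probe of the same member, the median r of the values was 0.87 and that of the departures from the member score 0.36. In 8 of the 44 members with several probes, the sign of the exposed minus sham difference was not the same for all probes: Rpl21, Rpl27, Rpl38, Rpl9, Rps19, Rps2, Rps23 and Rps4y2.

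Of the 4 tissue scores tested, that of the hair follicle was the one to which members were related at an adjusted p under 0.05. Slopes are per 1 SD of the marker score, with exposure in the model. Against the hair follicle score, 2 of 73 members had a lower slope that passed, where 1.04% of all kept probes did: Rps27 with -0.11 ± 0.03 (SE; limma, adjusted p = 0.0388) and Rps14 with -0.10 ± 0.03 (limma, adjusted p = 0.0309). No member had a higher slope that passed, where 3.05% of all kept probes did. At an unadjusted p under 0.05, 43 of 73 members, or 58.9%, were lower with more follicle signal, against 11.3% of all kept probes. Of the 46 other bright genes 12 were lower by the same criterion, and the member score minus the score of those genes had an r of 0.0043 with the follicle score over 17 arrays. The epidermis marker score also moved with the member score (r = 0.571, rho = 0.490, 17 arrays) and was lower in exposed than in sham skin by -0.13, and no slope on it was fitted, so its part was not tested. Rps27 was at 6.91 on sham replicate 5, which had the lowest follicle score (-5.54), and at 6.29 on exposed replicate 3 (2.24), though sham replicate 3, with the highest score (2.35), had 6.51. The calls rested on the scaling and on single arrays. With quantile scaling 0 members passed the adjusted test, where 1.3% of all kept probes did, and 4 members, or 5.48%, were lower at an unadjusted p under 0.05, against 11.9% of all kept probes. Leaving out exposed replicate 4, whose follicle score was -3.04, gave 8 members, and leaving out sham replicate 1, 3 or 5 or exposed replicate 3 gave 0. Leaving out sham replicate 2, 6 or 8 or exposed replicate 7 or 9 gave 1. Taken in both directions, the count at an unadjusted p, 43, was 58 without exposed replicate 4 and 51 with median scaling. It was 26 without exposed replicate 3 or sham replicate 3, 27 without sham replicate 5, and 10 with slide as a block. The shares of all kept probes in the fits without an array, with median scaling or with slide as a block are not given.

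**Figure D4:**
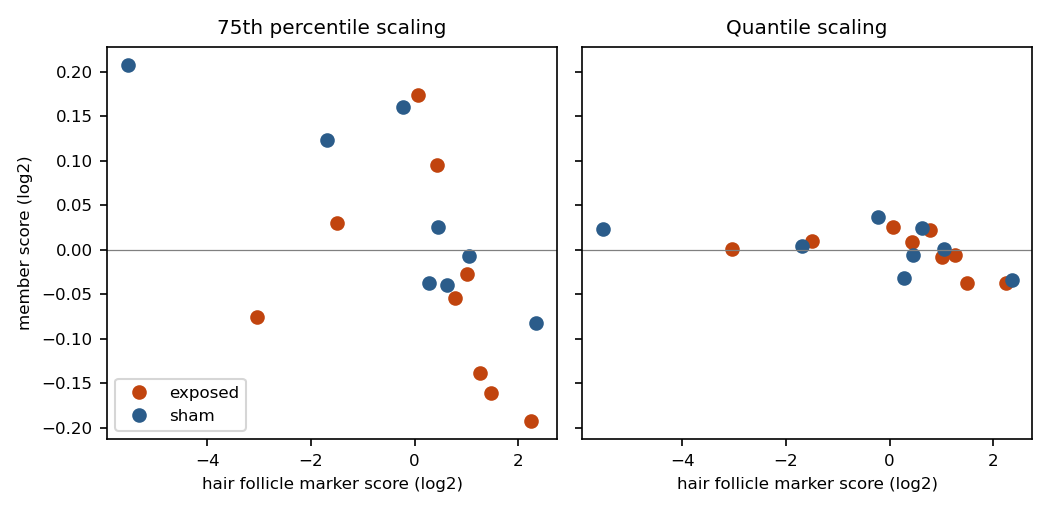
Member score (log2, vertical axis) against the hair follicle marker score (log2, horizontal axis) for 9 exposed and 8 sham arrays, with 75th percentile scaling at left and quantile scaling at right. At left the arrays of high follicle signal have low member scores, and exposed replicate 4, at a follicle score of -3.04, has a member score of -0.076, while at right all arrays lie between -0.038 and 0.037.

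Other tissue scores gave no member past the adjusted threshold. Against the skeletal muscle score 0 members passed in either direction, where 0.913% of all kept probes were higher and 0.0145% lower. The largest slopes were 0.06 for Rpl13a and -0.06 for Rpl23a, with a smallest adjusted p over members of 0.839 in limma. Against the adipocyte score 0 passed, where 0.0821% of all kept probes were higher and 0.00483% lower, and 13 were lower at an unadjusted p under 0.05 (17.8%, against 8.26% of all kept probes). With quantile scaling 7 were lower (9.59%, against 10.9% of all kept probes). The count of 13 was 3 without sham replicate 6, 1 without sham replicate 3, 21 without sham replicate 2, 32 without sham replicate 5, and 46 with slide as a block. Against the leukocyte score 0 passed, where 0.647% were higher and 0.0386% lower, and 28 were higher at an unadjusted p under 0.05 (38.4%, against 8.48%). With quantile scaling that count was 0, against 7.25% of all kept probes, and with slide as a block it was 4. It was 4 without exposed replicate 2, 5 without sham replicate 5, 12 without sham replicate 2, 13 without exposed replicate 9 or sham replicate 6, and 43 without exposed replicate 8. The adipocyte and leukocyte counts without an array or with slide as a block take both directions together. The shares of all kept probes in those fits are not given, so these counts cannot be read as particular to the members. The lowest leukocyte slopes were those of Rps4y2, Rpl15 and Rpl5 (-0.01, 0.0025 and 0.0033), and the highest those of Rps15a, Rps21 and Rpl9 (0.10 each). Between the 4 slides 0 members differed at an adjusted p under 0.05, as did 0% of all kept probes, and 1 differed at an unadjusted p under 0.05, where 7.93% of all kept probes did.

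Ribosomal proteins outside the symbol pattern behaved in different ways. Fau, whose product is a fusion of a ribosomal protein with a ubiquitin-like protein, followed the members, with r of 0.945 to the member score over 17 arrays. Fau was at 6.53 ± 0.12 in exposed skin (SD, n = 9) against 6.62 ± 0.12 in sham skin (SD, n = 8). Rack1, a scaffold on the small subunit, had r = 0.50, and Rpl22l1 had r = 0.0974. Rpsa, the laminin receptor protein of the small subunit, had r = 0.132 and was lowest on sham replicate 6 at 4.54, where its spots read 3.15 and 5.93. Of this list, 6 of 13 genes were measured, and 0 differed between exposed and sham at an unadjusted p under 0.05.

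Rpl3l, which replaces Rpl3 in striated muscle, was above background only on the arrays of highest muscle score. Rpl3l was highest on exposed replicate 8, at -0.26, and it was well above background on 8 arrays, 5 exposed and 3 sham. Those 8 were the arrays of highest muscle score: the lowest score among them was -0.43 and the highest among the other 9 was -1.29. On those 8 arrays it ran from -6.15 on exposed replicate 7 to -0.26, and the values of the other 9 arrays are not levels. Rpl3l passed the filter through the arrays of high muscle score alone, so no test of its slope is given. The slope of Rpl3 was -0.02 ± 0.03 (limma, adjusted p = 0.976). Among the 30 initiation and elongation factors measured, 1 had a higher slope that passed on the muscle score, Eef1a2, the elongation factor form of muscle and neurons, with 0.64 (limma, adjusted p = 0.00031).

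**Figure D5:**
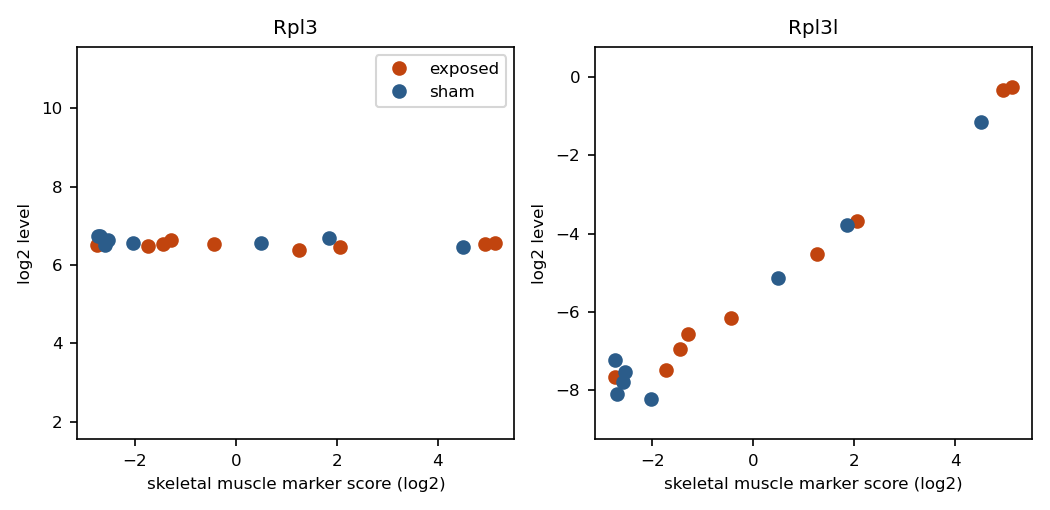
Log2 level of Rpl3 (left) and of its muscle paralogue Rpl3l (right) against the skeletal muscle marker score (log2, horizontal axis) for 9 exposed and 8 sham arrays, on vertical axes of equal length. Rpl3 stays between 6.39 and 6.74, and Rpl3l runs from -8.23 to -0.26, with the 9 arrays at a muscle score of -1.29 or lower not well above background.

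Other genes of the pathway gave no difference past the adjusted threshold. At an adjusted p under 0.05 between exposed and sham, 0 genes of any list passed in limma. At an unadjusted p under 0.05 there was 1 lower gene among 28 measured regulators (Sesn2, an inhibitor of mTORC1 signalling, with -0.19 ± 0.08 SE), 1 lower among 21 translation factors and other genes of the pyrimidine motif (Pabpc1, the poly(A) binding protein, with -0.14 ± 0.06), and 1 lower among 66 mitochondrial ribosomal proteins (Mrpl47, with -0.12 ± 0.06). Over all kept probes 4.55% had such a p, so these shares were near or below the background. There were 0 among 59 genes of ribosome biogenesis and 0 among 30 initiation and elongation factors. The median differences of these lists, -0.01, -0.02, -0.01, 0.0057 and 0.02, were nearer to 0 than that of the members under the 75th percentile scaling. With quantile scaling they were -0.0040, 0.0037, -0.0041, 0.010 and 0.026, against -0.0048 for the members. The score of the mitochondrial ribosomal proteins correlated with the member score at r = 0.499 (rho = 0.370, 17 arrays).

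Outside the members, genes whose values were among the most like the member score over the 17 arrays were Rpl37l1 (r = 0.949), Fau (0.945), Rplp1l1 (0.942), H2aj (0.922), Tpt1 (0.887), Clec2dl1 (0.883) and Pfdn5 (0.878). Rpl37l1 and Rplp1l1 carry the names of ribosomal protein copies, so their probes may read the parent genes as well. Tpt1, which also bears the pyrimidine motif, had a lower slope on the hair follicle score, -0.11 (limma, adjusted p = 0.0212). It was the only 1 of 21 measured translation factors and other genes of the motif with a lower slope that passed, and 0 passed higher. The median r of that list with the member score was 0.188, and -0.047 with quantile scaling, so the list did not follow the members as Tpt1 did. The genes with the lowest r were Cse1l (-0.854), Mprip (-0.838), Thsd1 (-0.834) and Cd200 (-0.816). With quantile scaling the r of the genes with the highest values ran from 0.327 for Fau to 0.708 for H2aj, with 0.644 for Rpl37l1 and 0.681 for Rplp1l1. That of the genes with the lowest values ran from -0.782 for Thsd1 to -0.516 for Cd200.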

How the data were processed

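RNA of 17 skin explants was labelled with Cy3 and read on 1-colour Agilent arrays, 1 array per sample. The scanner files hold fluorescence intensity, written by the authors' Agilent Feature Extraction software, per the file headers. The deposited value table holds log2 values of 14853 probes. Its columns matched the quantile-scaled scanner values, centred on each probe's median, at r of 0.9999 or more with slopes near 1, and its column medians ran from -0.037 to 0.041. Its log2 scale, centring and direction are thereby settled, and the deposited table is not independent of quantile scaling. Of 62976 spots per array, controls and spots marked as outliers were left out. A probe was kept if at least 50% of its spots were well above background on at least 8 arrays, which left 20710. Symbols came from the RefSeq table of GRCr8, which served for names alone because the files' grid refers to rn4. Where a gene had several probes, the brightest on average was used.

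The fits used limma 3.58.1 under R 4.3.3 (lmFit, eBayes), and p-values were adjusted by Benjamini-Hochberg over every kept probe, with 0.05 as the limit. Named members were the 8 of smallest p, the 5 of largest and 5 of smallest SD, those with the largest slopes on each score, and 17 chosen in any case. Alternatives were median and quantile scaling, normexp with an offset of 50 on the median signal, other filters, slide as a block, marker scores as covariates, the value table, the mean of a gene's probes, and leaving out each array. The members and lists were chosen with earlier results of these data known. The fit was tested on simulated data. Spots, departures from the member score, the signal limit of 6 and the promoter motifs were examined after the values had been seen. The values of some genes that these rules name are not reported here.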

Additional observations from a re-analysis of the deposited data

Results flagged for a closer look

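Among the sham arrays of Rps24, a small subunit protein, sham replicate 5 was highest at 5.89 and the next was 5.67. The gap was 0.579 of the group's whole range, above Dixon's 95% critical value for 8 samples. Sham replicate 5 also had the highest member score, 0.21. With the mean movement of the other members taken off, Rps24 lay 0.11 above its own mean there. The named genes gave 64 groups to examine, and chance passes this limit in about 1 in 20.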

How the results depend on the processing

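The count of members differing between exposed and sham was 0 at an adjusted p under 0.05 under every alternative run, and those of the muscle, adipocyte and leukocyte scores and of the slides were 0 as well. The difference of the member score kept its sign throughout, but its size depended on the scaling. It ran from -0.110 to -0.060 on leaving out each array, and was -0.0047 with quantile scaling and -0.0026 with the value table. Within slide 1 it was -0.00097, and within slide 4, which holds 1 exposed array, -0.198. The count on the hair follicle score, 2, was 0 with quantile scaling, with no filter on dim probes, with slide as a block, with the value table and with the mean of a gene's probes, 4 with normexp, 15 without the arrays of the 2 lowest follicle scores (chosen after seeing the data), and 0 to 8 on leaving out each array. Apart from quantile scaling, the shares of all kept probes under these alternatives are not given. The median r between members, 0.78, was 0.122 with quantile scaling, 0.131 with the value table (both chosen after seeing the data) and 0.801 without sham replicate 6. The cause was not tested. Single differences turned sign for Rpl3 (0.0030 with quantile scaling, 0.0054 with the value table), Rplp0 (0.028 and 0.041) and Rpl38 (-0.00061 with the mean of its probes, and from -0.038 to 0.075 on leaving out each array). No paired analysis was possible because the labels give the arrays no replicate numbers that groups share. The signals of the members lay far above background on all arrays.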

Other observations

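Disagreement between spots was shared between arrays. Of the 27 probes whose spots differed by more than 0.5 on sham replicate 4 and the 28 on exposed replicate 6, 21 were the same, and 27 and 25 of them were also among the 235 of sham replicate 6. Exposed replicate 7, with 23, and sham replicate 5, with 26, shared 16. The members among these were Rplp1 on exposed replicate 7 and sham replicate 5, with gaps of 0.93 and 0.86, and Rpl31, Rps3, Rpl11 and Rpl36 on sham replicate 6, with gaps of 1.24, 1.15, 0.62 and 0.57.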
